A study of Mus musculus with 10 samples.

Results

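Id1, Id2, Id3 and Id4 were described together with 6 genes of bone morphogenetic protein (BMP) signalling in neural stem and progenitor cells (NSC/NPCs) cultured from the brain of adult mice. The other genes were the ligand Bmp4, the type I receptors Bmpr1a and Bmpr1b, the inhibitory Smads Smad6 and Smad7, and the receptor-regulated Smad9. The genes were chosen by symbol through their Ensembl identifiers, and all 10 were found among the 48795 genes listed. RNA-seq had been carried out on polyA RNA from 10 libraries in 4 groups, which were WT proliferating (PRO, 3 libraries), WT differentiating (DIFF, 3), and the same stages labelled p27KO (2 each).

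The cells had been cultured from the subependymal zone of mice 10 weeks old. PRO cells had been grown as neurospheres for 3 days in vitro (DIV) with 20 ng/ml EGF and 10 ng/ml FGF. DIFF cells were at 2 + 1 DIV, the onset of differentiation: they had been seeded at 40000 cells/cm2 on Matrigel with FGF for 2 days and then kept for 24 h without mitogens in medium with 2% fetal bovine serum. The loss of mitogens, the serum and the adhesion to Matrigel therefore differed together between the stages, and their parts in a stage change cannot be told apart. p27KO denotes mice mutant for Cdkn1b, the gene of the cell cycle inhibitor p27, and WT libraries are the controls.

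BMPs are secreted ligands that bring together type I and type II receptors with serine/threonine kinase activity. The activated type I receptor phosphorylates Smad1, Smad5 or Smad9, which join Smad4 and enter the nucleus, and the Id genes are their best known direct targets in many cell types. Id proteins have a helix-loop-helix region without the basic stretch that binds DNA, so that they hold E proteins away from the basic helix-loop-helix (bHLH) factors that drive neurogenesis and oligodendrogenesis. In the adult subependymal zone BMP signalling is known for its part in stem cell quiescence and in astrocyte formation, and it is restrained there by the antagonist Noggin.

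Totals ranged from 19190068 to 25291674 counts per library, so that 3 counts, the limit that a count of 0 allows, correspond to 0.119 to 0.156 CPM (counts per 1000000 counts of the library). This limit covers counting error only. Cdkn1b had 90.7 and 114 CPM in the PRO libraries labelled p27KO against 103 to 113 CPM in WT PRO, and 137 and 140 CPM against 205 to 209 CPM in DIFF. The gene was called lower in DIFF by 0.56 on the log2 scale (edgeR, Benjamini-Hochberg adjusted p = 0.012), and its counts were not lost in any library. It was not called without p27KO-labelled DIFF replicate 1 or 2 (adjusted p = 0.114 and 0.152, edgeR). The free-text descriptions of the libraries labelled p27KO name WT cells, whereas their titles and genotype field give p27KO, and which exons the mutant allele lacks is not given in the sources used here. Xist, the transcript behind X inactivation, was at 2258 to 3595 CPM in the 4 libraries labelled p27KO and at 1.16 to 2.57 CPM in the 6 WT libraries. The Y-linked Ddx3y showed the opposite order, with 51.6 to 109 CPM in WT libraries and 0.045 to 0.124 CPM in the others. The genotype label and the sex of the cultures cannot be told apart in these libraries.

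**Figure D1:**
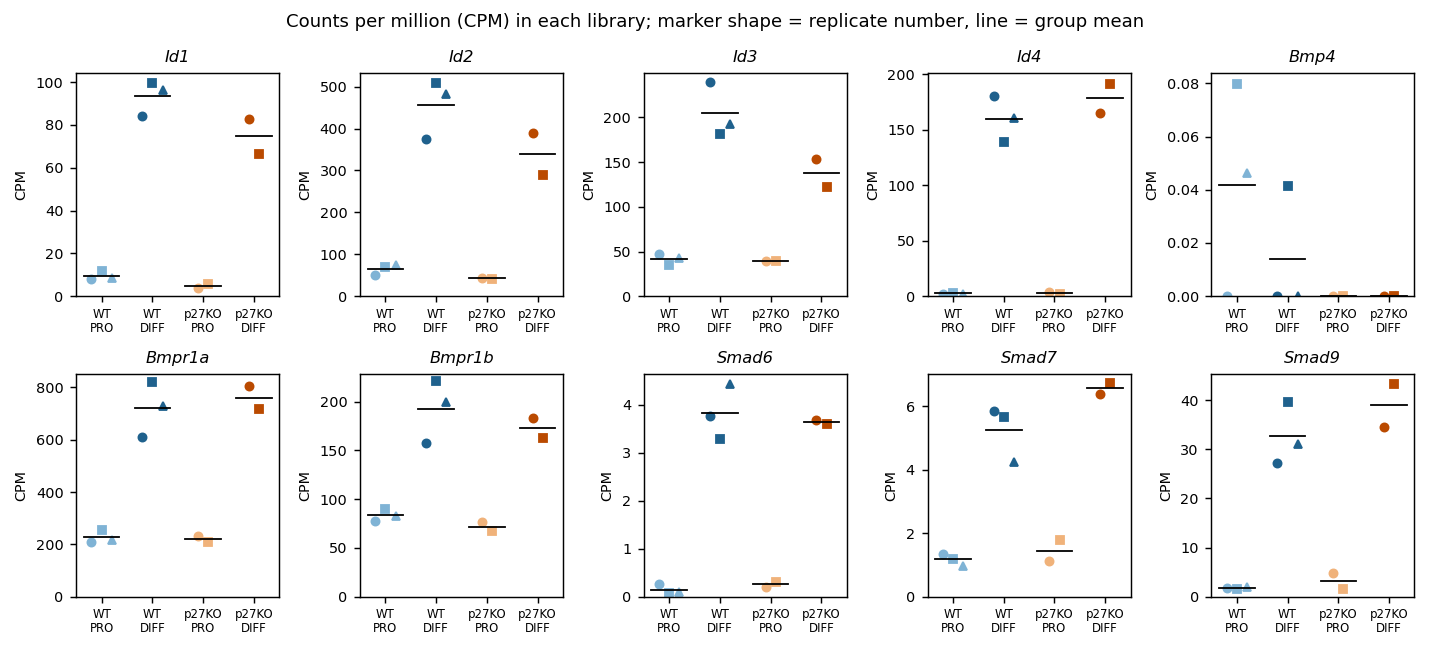
Level of the 10 genes in each of the 10 libraries, as CPM on linear axes that start at 0, by group. Points are libraries, their shape gives the replicate number and lines are group means. In every panel but that of Bmp4 all 5 DIFF libraries lie above all 5 PRO libraries.

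At the onset of differentiation the 4 Id genes, both type I receptors and the 3 Smads rose in WT cultures and in cultures labelled p27KO. The tested genes were the 12859 left by the study's filter, which drops a gene that is under 1 CPM in 4 or more libraries, and a gene was called at an adjusted p under 0.05. Of the 10 genes, 8 were tested, and all 8 were called higher in both genotypes. In comparison, 33.5% of all tested genes were called higher in WT and 27.5% in the libraries labelled p27KO. The median log2 fold change of the 8 genes was 2.54 in WT and 2.56 in p27KO-labelled cultures, beside -0.00187 and -0.0291 over all tested genes. Smad6 and Bmp4 were below the filter. The 5 DIFF libraries did not overlap the 5 PRO libraries for 9 of the 10 genes, Smad6 included, and all 8 tested genes were among these 9, whereas 30.1% of all tested genes had every DIFF library above every PRO library. In these bulk samples more cells that express a gene and more RNA per cell cannot be told apart.

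Id1 to Id4 encode small nuclear proteins that share their helix-loop-helix region, and a stretch of 120 coding bases within it was the most alike in the 4 genes. It is shown with capitals at the bases identical in all 4 genes (GENCODE vM21 transcripts, GRCm38, coding strand, 5′ to 3′). The stretch lies within 1 coding exon in each gene, at chr2:152736518-152736637 (+) in Id1, chr12:25095783-25095902 (-) in Id2, chr4:136144002-136144121 (+) in Id3 and chr13:48261693-48261812 (+) in Id4.
Id1: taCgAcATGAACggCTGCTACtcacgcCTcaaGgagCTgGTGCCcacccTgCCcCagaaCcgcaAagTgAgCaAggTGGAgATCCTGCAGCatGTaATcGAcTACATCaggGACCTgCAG
Id2: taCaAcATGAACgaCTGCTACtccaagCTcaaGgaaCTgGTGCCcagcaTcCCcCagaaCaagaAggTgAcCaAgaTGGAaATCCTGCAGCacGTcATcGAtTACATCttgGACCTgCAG
Id3: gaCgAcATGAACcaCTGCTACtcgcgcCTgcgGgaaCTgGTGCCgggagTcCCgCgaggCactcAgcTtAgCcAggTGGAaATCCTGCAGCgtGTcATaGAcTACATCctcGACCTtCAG
Id4: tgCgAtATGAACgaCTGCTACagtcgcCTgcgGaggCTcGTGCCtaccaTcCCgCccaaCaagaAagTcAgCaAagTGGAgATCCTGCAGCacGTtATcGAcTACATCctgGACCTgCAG
Of the 120 bases 69 were identical in all 4 genes, and pairs shared between 85 bases (Id1 with Id3, and Id3 with Id4) and 98 bases (Id1 with Id2). Over the whole transcripts, the longest run of bases shared exactly by a pair of Id genes was 19, in Id2 and Id3. The corresponding longest runs were 16 bases for Bmpr1a and Bmpr1b and 12 bases for Smad6 and Smad7.

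Id4 had the largest fitted rise among the 9 genes that could be fitted. It stood at 2.34, 2.99 and 2.21 CPM in the WT PRO libraries and at 180, 139 and 160 CPM in WT DIFF. The libraries labelled p27KO had 3.84 and 1.62 CPM in PRO and 165 and 191 CPM in DIFF. Both genotypes thus had Id4 near the filter limit in neurospheres and above 100 CPM at 2 + 1 DIV, and WT and p27KO-labelled libraries overlapped at each stage. Id4 rose 62.5-fold in WT (log2 5.97 ± 0.24, SE; edgeR with Benjamini-Hochberg adjustment, adjusted p = 9.8e-08) and 62.9-fold in p27KO-labelled cultures (log2 5.97 ± 0.30; adjusted p = 1.38e-06). Without p27KO-labelled PRO replicate 1 the latter log2 value was 6.73, and without replicate 2 it was 5.53. Ordered from the largest rise, it was at rank 5 of the 12859 tested genes in WT and at rank 6 in the libraries labelled p27KO. The annotated gene A330033J07Rik overlaps Id4 (82 shared exon bases) and had 206 counts over all libraries, against 168 counts for Id4 in WT PRO and 10955 in WT DIFF. Gm49291 also overlaps Id4 (171 shared exon bases) and is not among the genes counted, so its reads cannot be bounded.

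Id1, which is widely used as a readout of BMP signalling, had 8.13, 11.6 and 8.71 CPM in WT PRO and 84.1, 99.3 and 96.4 CPM in WT DIFF. The PRO libraries labelled p27KO had 3.97 and 5.66 CPM, below each WT PRO library, and the DIFF libraries had 82.7 and 66.5 CPM, below each WT DIFF library. Id1 rose 9.75-fold in WT (log2 3.29 ± 0.18; edgeR with Benjamini-Hochberg adjustment, adjusted p = 3.2e-07) and 15.3-fold in p27KO-labelled cultures (log2 3.94 ± 0.23; adjusted p = 1.99e-06). It was at rank 91 and rank 39 among all tested genes.

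Id2, which is found in many neural and non-neural progenitors, had 51.1, 70.8 and 74.9 CPM in WT PRO and 376, 509 and 482 CPM in WT DIFF. In libraries labelled p27KO it had 44.6 and 41.0 CPM in PRO, below each WT PRO library, and 390 and 288 CPM in DIFF, where they overlapped WT. The rise was 6.90-fold in WT (log2 2.79 ± 0.19; edgeR with Benjamini-Hochberg adjustment, adjusted p = 1.34e-06) and 7.79-fold in p27KO-labelled cultures (log2 2.96 ± 0.23; adjusted p = 9.02e-06).

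Id3, which often acts alongside Id1, rose least of the 4 Id genes. It had 47.3, 35.1 and 42.5 CPM in WT PRO and 239, 182 and 193 CPM in WT DIFF. The libraries labelled p27KO had 39.7 and 39.5 CPM in PRO, within the WT range, and 154 and 122 CPM in DIFF, below each WT DIFF library. Id3 rose 4.88-fold in WT (log2 2.29 ± 0.15; edgeR with Benjamini-Hochberg adjustment, adjusted p = 8.53e-07) and 3.43-fold in p27KO-labelled cultures (log2 1.78 ± 0.18; adjusted p = 2.94e-05).

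Levels of the 4 genes were set beside each other after division by exon length, as CPM per kb of annotated exon. In WT PRO, Id2 stood at 26.9 ± 5.22 CPM per kb (SD, n = 3) and Id3 at 23.2 ± 3.43, and the libraries of these 2 genes overlapped. Id1 followed at 8.16 ± 1.59 and Id4 at 0.654 ± 0.108 CPM per kb, both apart from their neighbours. In WT DIFF the order was the same, with 187 ± 28.9 for Id2, 114 ± 17.0 for Id3, 80.4 ± 6.96 for Id1 and 41.6 ± 5.33 for Id4, and no neighbours overlapped. In p27KO-labelled PRO libraries Id3 (22.1 ± 0.046, n = 2) stood above Id2 (17.6 ± 1.04). In p27KO-labelled DIFF libraries Id3 (77.1 ± 12.5, n = 2) and Id1 (64.3 ± 9.87) overlapped.

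The 4 genes together amounted to 55.0 to 62.5 CPM per kb in WT PRO libraries and 407 to 432 in WT DIFF libraries. In libraries labelled p27KO the sums were 44.2 and 44.9 in PRO and 294 and 360 in DIFF, below every WT library of the same stage. Of all tested genes, 10.9% in PRO and 20.4% in DIFF lay entirely below WT. Of the single genes, Id2 overlapped WT in DIFF, Id3 in PRO and Id4 at both stages. The difference of the sums was not tested. Id3 made up 33.0 to 48.0% of the WT PRO sum and 23.5 to 32.8% of the WT DIFF sum. Id4 went from 0.92 to 1.31% of the sum in WT PRO to 8.37 to 11.5% in WT DIFF, and from 0.954 and 2.23% to 11.9 and 16.9% in p27KO-labelled libraries. The share of Id2 overlapped between the stages in WT, at 38.1 to 49.1% in PRO and 37.9 to 48.3% in DIFF. These shares are descriptions of the libraries and were not tested.

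**Figure D2:**
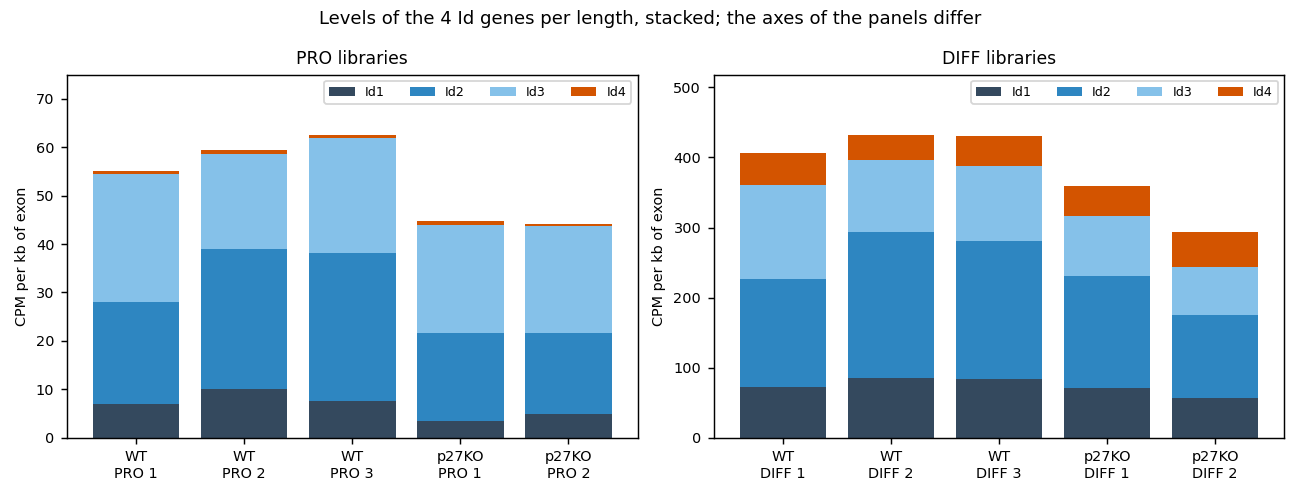
Stacked levels of Id1 to Id4 in each library, in CPM per kb of exon, with PRO libraries in the left panel and DIFF libraries in the right panel, whose axis reaches higher. The sums lie between 44.2 and 62.5 in PRO and between 294 and 432 in DIFF, and the Id4 segment is visible as a sizeable part of the bar only in DIFF.

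Bmp4, a ligand of these receptors, was close to undetected. It had 0, 2 and 1 counts in the WT PRO libraries, 0, 1 and 0 counts in WT DIFF, and 0 counts in all 4 libraries labelled p27KO. All values were at or under 0.0798 CPM, below the limit of 3 counts per library, so that neither expression nor a change of Bmp4 was detectable at this depth.

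Bmpr1a, a type I receptor found on many cell types, had 208, 256 and 215 CPM in WT PRO and 611, 823 and 728 CPM in WT DIFF. The libraries labelled p27KO had 231 and 210 CPM in PRO and 806 and 716 CPM in DIFF, so that the genotypes overlapped at each stage. Bmpr1a rose 3.17-fold in WT (log2 1.66 ± 0.13; edgeR with Benjamini-Hochberg adjustment, adjusted p = 3.12e-06) and 3.39-fold in p27KO-labelled cultures (log2 1.76 ± 0.16; adjusted p = 1.81e-05).

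Bmpr1b, the related type I receptor with a more restricted expression, had 77.5, 90.3 and 82.5 CPM in WT PRO and 157, 221 and 199 CPM in WT DIFF. Libraries labelled p27KO stood at 76.7 and 67.0 CPM in PRO, below each WT PRO library by a small margin, and 183 and 163 CPM in DIFF, within the WT range. Its rise was the smallest of the 8 tested genes, 2.30-fold in WT (log2 1.20 ± 0.13; edgeR with Benjamini-Hochberg adjustment, adjusted p = 2.75e-05) and 2.37-fold in p27KO-labelled cultures (log2 1.24 ± 0.16; adjusted p = 0.000145). Per length, Bmpr1a exceeded Bmpr1b in every group, with 35.6 ± 4.07 against 14.0 ± 1.08 CPM per kb in WT PRO and 113 ± 16.7 against 32.3 ± 5.45 in WT DIFF.

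Smad9 is a receptor-regulated Smad, which the activated type I receptor phosphorylates, as it does Smad1 and Smad5. It had 1.82, 1.48 and 1.94 CPM in WT PRO and 27.2, 39.8 and 31.1 CPM in WT DIFF. In libraries labelled p27KO it had 4.87 and 1.52 CPM in PRO and 34.7 and 43.4 CPM in DIFF, with PRO replicate 1 above the other 4 PRO libraries. Smad9 rose 18.7-fold in WT (log2 4.22 ± 0.36; edgeR with Benjamini-Hochberg adjustment, adjusted p = 8.19e-06) and 11.9-fold in p27KO-labelled cultures (log2 3.57 ± 0.42; adjusted p = 0.000104). The latter log2 value was 4.63 without p27KO-labelled PRO replicate 1 and 2.99 without replicate 2.

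Smad7, an inhibitory Smad that blocks type I receptors of the BMP and TGF-beta branches, had 1.35, 1.20 and 0.968 CPM in WT PRO and 5.85, 5.68 and 4.23 CPM in WT DIFF. The libraries labelled p27KO had 1.12 and 1.77 CPM in PRO and 6.38 and 6.75 CPM in DIFF, the latter above each WT DIFF library. Smad7 rose 4.44-fold in WT (log2 2.15 ± 0.25; edgeR with Benjamini-Hochberg adjustment, adjusted p = 3.78e-05) and 4.48-fold in p27KO-labelled cultures (log2 2.16 ± 0.30; adjusted p = 0.000201).

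Smad6, the inhibitory Smad that acts mainly on the BMP branch, had 5, 2 and 2 counts in WT PRO (0.261, 0.0798 and 0.0922 CPM) and 3.77, 3.27 and 4.43 CPM in WT DIFF. Libraries labelled p27KO stood at 0.207 and 0.295 CPM in PRO and 3.69 and 3.60 CPM in DIFF. Every DIFF library thus lay above every PRO library, where 2 of the 5 were under the limit of 3 counts. Smad6 was fitted with a wider filter of at least 1 CPM in at least 4 libraries, which kept 14070 genes and called 34.0% of them higher in WT and 28.1% in p27KO-labelled cultures. There it rose by log2 4.68 ± 0.38 in WT (edgeR with Benjamini-Hochberg adjustment, adjusted p = 4e-06) and 3.78 ± 0.43 in p27KO-labelled cultures (adjusted p = 6.53e-05). Smad6 passed the wider filter only through the DIFF libraries, where it was high, so these p-values are not independent support for a rise. These log2 values rest on few PRO counts, and that of WT was 5.34 without WT PRO replicate 1. Per length, the libraries of the inhibitory Smads overlapped in WT DIFF (Smad6 1.19 ± 0.181 and Smad7 1.16 ± 0.197 CPM per kb), below Smad9 (6.09 ± 1.20).

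Promoter bases are shown for Id4, Smad9 and Smad6, the 3 genes with the largest fitted rises in WT, because GC-rich words of the kind described as BMP response elements can be looked for in them. The words searched were GGCGCC, which reads the same on both strands, and GGAGCC on either strand, and they are in capitals (RefSeq, GRCm38.p6, the 250 bases before the annotated start, 5′ to 3′ on the strand of the gene). The stretches are chr13:48260866-48261115 (+) for Id4, chr3:54755332-54755581 (+) for Smad9 and chr9:64022060-64022309 (-) for Smad6, and no annotated exon of these genes lies in them.
Id4: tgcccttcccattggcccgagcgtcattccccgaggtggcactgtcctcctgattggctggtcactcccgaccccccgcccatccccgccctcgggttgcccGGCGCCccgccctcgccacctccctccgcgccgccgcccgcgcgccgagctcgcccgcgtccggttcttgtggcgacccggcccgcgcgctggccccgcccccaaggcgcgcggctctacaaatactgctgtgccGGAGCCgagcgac
Smad9: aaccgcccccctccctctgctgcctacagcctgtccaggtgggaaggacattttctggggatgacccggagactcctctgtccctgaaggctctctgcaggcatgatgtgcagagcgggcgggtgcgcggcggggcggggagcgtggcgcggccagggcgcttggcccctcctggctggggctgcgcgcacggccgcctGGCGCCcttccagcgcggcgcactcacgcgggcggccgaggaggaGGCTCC
Smad6: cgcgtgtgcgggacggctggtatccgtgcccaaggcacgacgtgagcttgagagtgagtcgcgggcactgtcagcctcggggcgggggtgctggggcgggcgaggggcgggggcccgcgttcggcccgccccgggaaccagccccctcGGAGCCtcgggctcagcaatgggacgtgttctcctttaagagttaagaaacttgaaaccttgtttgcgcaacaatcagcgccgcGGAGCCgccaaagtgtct
Counted from -1 at the last base before the start, Id4 held GGCGCC from -148 and GGAGCC from -13, and Smad9 held them from -51 and -6. Smad6 held GGAGCC from -102 and from -18 and no GGCGCC in this stretch. No 2 matches overlapped. Of the 10 genes, 8 had 1 or more promoter entries, and Id1 and Smad7 had no entry. These 8 genes had 10 entries, of which 4 held GGCGCC (Id2, Id4, Bmpr1a and Smad9) and 8 held GGAGCC (7 genes, all but Bmpr1a). Over all 32851 promoters the shares were 9.59% for GGCGCC and 26.0% for GGAGCC. The median share of G and C was 63.0% over the 10 entries and 52.4% over all promoters, and the comparison was not matched on it. A match is a description of the letters and not evidence of binding.

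**Figure D3:**
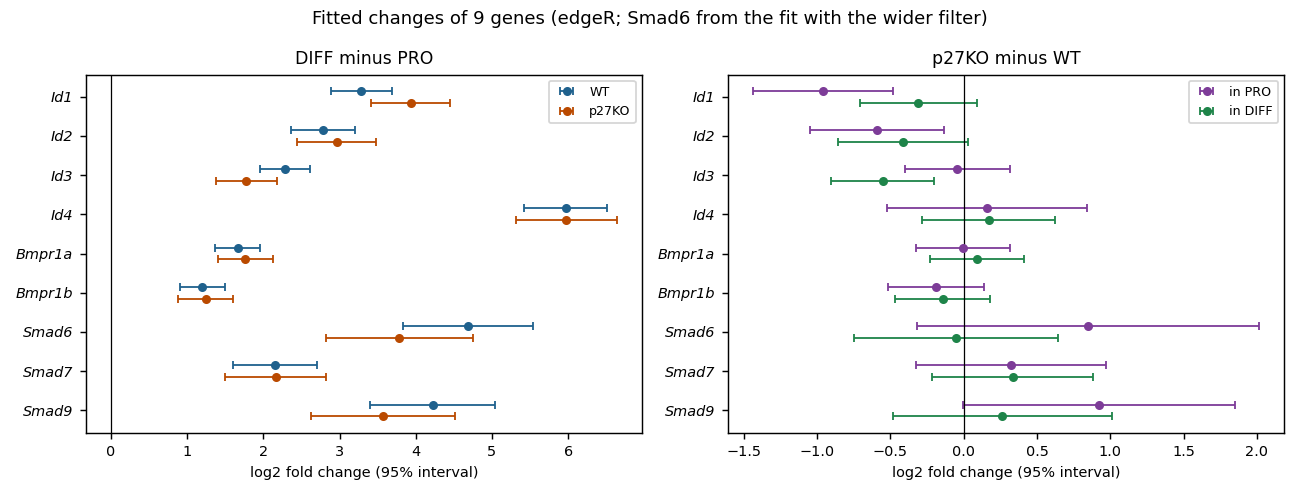
Fitted log2 fold changes with 95% intervals for the 9 genes that could be fitted, DIFF minus PRO in each genotype (left) and p27KO-labelled minus WT at each stage (right). All stage changes lie above 0, from 1.20 for Bmpr1b to 5.97 for Id4 in WT, whereas most genotype differences have intervals that include 0.

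The comparison of genotypes asked whether the cultures labelled p27KO differed from WT in these genes at either stage, or in the size of the stage change. None of the 8 tested genes was called by edgeR in the genotype by stage interaction, in PRO or in DIFF, where 0.389%, 0.0156% and 2.04% of all tested genes were called. With the replicate number of each genotype as a block, 29 in place of 50 genes were called in the interaction, and none of the 8 genes was among them. With the number as a block across genotypes, 1 in place of 2 genes was called in PRO. Without adjustment, the interaction had Id1 and Id3 at p under 0.05 (as 4.31% of all tested genes), PRO had Id1 and Id2 (4.69%), and DIFF had Id3 (14.8%).

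Id1 was lower in PRO libraries labelled p27KO by 0.96 on the log2 scale (95% interval -1.44 to -0.48; edgeR with Benjamini-Hochberg adjustment, adjusted p = 0.624). DESeq2 called this difference (log2 -0.96, Benjamini-Hochberg adjusted p = 0.0121), together with 0.311% of the genes it tested. In DIFF the Id1 difference was -0.31 (interval -0.71 to 0.091), and the difference of the stage changes was 0.65 (interval 0.033 to 1.27; adjusted p = 1.0). Id2 in PRO was at -0.59 (interval -1.05 to -0.13; adjusted p = 0.945), and DESeq2 did not call it (adjusted p = 0.366).

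Id3 was at -0.55 in DIFF libraries labelled p27KO (interval -0.90 to -0.20; edgeR with Benjamini-Hochberg adjustment, adjusted p = 0.137), and DESeq2 called it (log2 -0.53, Benjamini-Hochberg adjusted p = 0.0341), together with 5.01% of the genes it tested. In PRO the Id3 difference was -0.042 (interval -0.40 to 0.32), and the difference of the stage changes was -0.51 (interval -1.01 to -0.010; adjusted p = 1.0). Id4 had differences of 0.16 in PRO (interval -0.52 to 0.84) and 0.17 in DIFF (interval -0.28 to 0.62). Without p27KO-labelled PRO replicate 1 the Id4 difference in PRO was -0.59.

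The receptors had the narrowest intervals. The Bmpr1a difference was -0.0078 in PRO (interval -0.33 to 0.31) and 0.091 in DIFF (-0.23 to 0.41), and that of Bmpr1b was -0.19 (-0.52 to 0.14) and -0.14 (-0.47 to 0.18). Smad7 was at 0.32 in PRO (-0.32 to 0.97) and 0.33 in DIFF (-0.22 to 0.88). The Smad9 difference in PRO was 0.92 (-0.0072 to 1.85), and without p27KO-labelled PRO replicate 1 it was -0.14. Smad6 was at 0.85 in PRO (-0.32 to 2.01) and -0.052 in DIFF (-0.75 to 0.64).

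In single libraries, the p27KO-labelled group lay entirely below WT in PRO for Id1, Id2 and Bmpr1b, 3 of the 8 tested genes beside 10.9% of all tested genes, and entirely below WT in DIFF for Id1 and Id3, 2 of 8 beside 20.4%. It lay entirely above WT in DIFF for Smad7, 1 of 8 beside 17.0%, and above WT in PRO for 0 of 8 beside 6.94%.

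The other genes of the pathway were taken from lists by role. Of 10 further BMP ligands, only Bmp7 passed the filter, and it fell. Bmp7, a ligand with receptors in common with BMP4, had 108, 99.8 and 91.1 CPM in WT PRO and 5.95, 4.35 and 3.83 CPM in WT DIFF, and 111 and 95.6 CPM against 5.47 and 5.94 CPM in libraries labelled p27KO. The log2 changes were -4.42 ± 0.16 in WT (edgeR with Benjamini-Hochberg adjustment, adjusted p = 4.61e-08) and -4.21 ± 0.19 in p27KO-labelled cultures (adjusted p = 6.62e-07). No PRO library overlapped a DIFF library, and the share of all tested genes that fell without overlap is not given here. Of all tested genes, 33.9% were called lower in WT and 30.2% in p27KO-labelled cultures. The other 9 ligands were at low levels: Gdf2 and Gdf5 had 0 counts in every library, and Bmp2, Bmp5, Bmp6, Bmp8a, Bmp8b, Gdf6 and Gdf7 did not exceed 1.66 CPM in any. At these low counts Bmp6 was higher in DIFF, with 0, 1 and 1 counts in WT PRO and 10, 5 and 19 in WT DIFF. In libraries labelled p27KO it had 0 and 2 counts in PRO and 16 and 37 in DIFF. Bmp8a had 2, 0 and 0 counts in WT PRO and 23, 5 and 14 in WT DIFF. Its p27KO-labelled counts were 0 and 0 in PRO and 8 and 1 in DIFF. Bmp5 and Bmp8b did not exceed 2 counts in any library.

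Of 12 antagonists 8 were tested, and 5 were called higher and 2 lower in WT (33.5% and 33.9% of all tested genes). In p27KO-labelled cultures 3 were called higher and 1 lower (27.5% and 30.2%). Nog, which encodes Noggin, was below the filter but went from 0.573, 0.279 and 0.231 CPM in WT PRO to 14.3, 13.8 and 14.6 CPM in WT DIFF. In libraries labelled p27KO it went from 0.207 and 0.541 to 11.1 and 12.8 CPM. Every DIFF library lay above every PRO library for Nog, as for 30.1% of all tested genes. With the wider filter Nog rose by log2 5.26 ± 0.33 in WT and 4.96 ± 0.40 in p27KO-labelled cultures (edgeR with Benjamini-Hochberg adjustment, adjusted p = 6.86e-07 and 8.57e-06). The latter log2 value was 5.77 without p27KO-labelled PRO replicate 2. Nog passed the wider filter only through the DIFF libraries, where it was high, so these p-values are not independent support for a rise. Chrdl1, a chordin-like antagonist, fell from 34.9 to 47.0 CPM in WT PRO to 9.53 to 17.5 CPM in WT DIFF (log2 -1.79 ± 0.22). Fstl1 (1.22 ± 0.15), Nbl1 (0.94 ± 0.13) and Twsg1 (0.56 ± 0.10), which also bind BMPs outside the cell, rose in WT. Nbl1 was at 0.22 ± 0.16 in p27KO-labelled cultures and was not called there, and the difference of its stage changes was -0.73 (edgeR with Benjamini-Hochberg adjustment, adjusted p = 0.428). Grem1, Fst and Sostdc1 were below the filter, and none exceeded 2.69 CPM in a library.

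Of 9 further receptors and co-receptors, 7 were tested, and 5 were called higher and 0 lower in WT (33.5% and 33.9% of all tested genes), against 4 and 0 in p27KO-labelled cultures (27.5% and 30.2%). Rgma, a co-receptor of BMPs, rose by log2 3.21 ± 0.12 in WT, from 43.2 to 51.1 CPM in PRO to 410 to 460 CPM in DIFF, and by 3.02 ± 0.15 in p27KO-labelled cultures. Neo1, which binds Rgma, rose by 1.16 ± 0.12, and the type II receptor Acvr2a by 0.47 ± 0.10 in WT. Without adjustment, edgeR had 1 of the 7 lower at p under 0.05 in WT (Acvr1, a type I receptor, at -0.30 ± 0.12) and 0 in p27KO-labelled cultures, and DESeq2 called 0 lower in either. With the replicate number of each genotype as a block, 1 was called lower in WT.

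Smads and their regulators numbered 11, all tested, of which 8 were called higher and 2 lower in WT (33.5% and 33.9% of all tested genes), and 9 higher and 0 lower in p27KO-labelled cultures (27.5% and 30.2%). The latter 0 held with edgeR at an unadjusted p under 0.05 and with DESeq2. Smad5 (-0.27 ± 0.08) and the ubiquitin ligase Smurf1 (-0.24 ± 0.08) fell by small amounts in WT. Neither was called without WT DIFF replicate 1 (-0.23 and -0.22) or WT PRO replicate 2 (-0.20 and -0.19), nor Smurf1 without WT DIFF replicate 3 (-0.20). Zfp423, a zinc finger partner of BMP Smads, rose by 2.35 ± 0.24, from 11.4 to 24.9 CPM in WT PRO to 86.2 to 108 CPM in WT DIFF. Nedd4l, a ubiquitin ligase, rose by 1.50 ± 0.11 and the corepressor Skil by 0.76 ± 0.13.

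Of 8 other genes described as BMP targets, 4 were tested, with 2 called higher and 1 lower in both genotypes, where 33.5% and 33.9% of all tested genes were called in WT and 27.5% and 30.2% in p27KO-labelled cultures. Atoh8 rose from 0.968 to 1.63 CPM in WT PRO to 21.4 to 43.4 CPM in WT DIFF (log2 4.55 ± 0.33) and from 0.826 and 1.18 to 32.8 and 23.5 CPM in libraries labelled p27KO (4.79 ± 0.42). Hey1 rose by 1.54 ± 0.13 in WT. Hes1, a repressor that is also a Notch target, fell from 32.0 to 35.3 CPM to 5.97 to 9.87 CPM in WT (-2.02 ± 0.16).

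**Figure D4:**
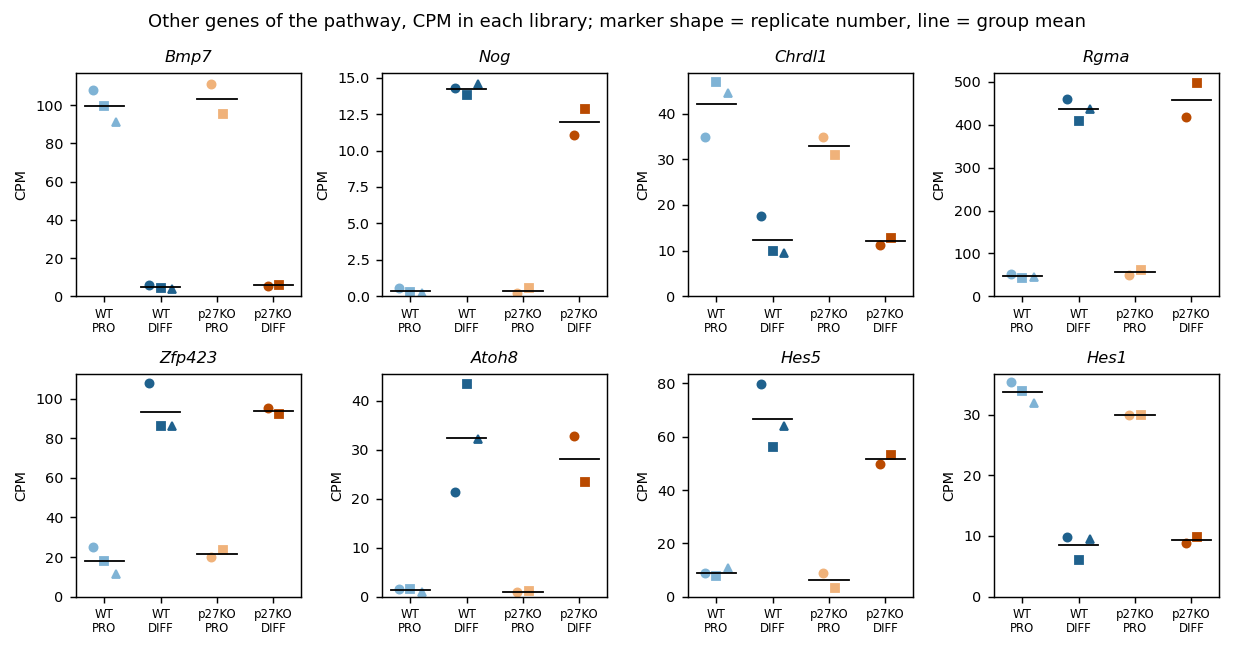
Level of 8 other genes of the pathway in each library, in CPM on axes that start at 0, by group, with point shape for the replicate number and a line for the group mean. Bmp7, Chrdl1 and Hes1 are lower in all DIFF libraries than in all PRO libraries, and Nog, Rgma, Zfp423, Atoh8 and Hes5 are higher. Of all tested genes, 30.1% were higher in this way, and the share lower in this way is not given here. The 8 genes are a selection from the lists.

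The TGF-beta and activin branch, which signals through Smad2 and Smad3, had 15 listed symbols, of which 14 were matched. The unmatched symbol, Ctgf, is an older name of Ccn2, which was matched. Of the 14 genes 9 were tested. Of these 3 were called higher and 4 lower in each genotype, beside the shares of all tested genes in WT (33.5% and 33.9%) and in p27KO-labelled cultures (27.5% and 30.2%). In WT the receptor Acvr1b (1.17 ± 0.16), the ligand Tgfb2 (1.09 ± 0.13) and the inhibin subunit Inhbb (1.08 ± 0.16) rose, and Smad3 (-0.70 ± 0.15) and Smad2 (-0.54 ± 0.10) fell. The median of the 9 genes was -0.30 in WT, beside -0.00187 over all tested genes.

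Of the bHLH factors and E proteins with which Id proteins interact, 8 were tested, and 4 were called higher and 3 lower in each genotype, beside 33.5% and 33.9% of all tested genes in WT and 27.5% and 30.2% in p27KO-labelled cultures. The E protein Tcf4 rose from 625 to 661 CPM in WT PRO to 1344 to 1373 CPM in WT DIFF (log2 1.06 ± 0.08), whereas the E protein Tcf3 fell (-0.65 ± 0.12). In WT, Olig2 (-1.53 ± 0.11) and Olig1 (-0.94 ± 0.14), which direct oligodendrocyte formation, fell. Hes5 (2.88 ± 0.29) and Hes6 (0.92 ± 0.11) rose. Of the 48 tested genes in these 7 lists, edgeR called 0 in the interaction, 0 in PRO and 0 in DIFF between the genotypes, where it called 0.389%, 0.0156% and 2.04% of all tested genes. Without adjustment 2, 4 and 7 had a p under 0.05, beside 4.31%, 4.69% and 14.8% of all tested genes. DESeq2 called 0, 0 and 3 of them, where it called 1.25%, 0.311% and 5.01% of all genes. The 3 in DIFF were the antagonist Bmper and the type II receptor Bmpr2, both higher in libraries labelled p27KO (edgeR log2 0.77 ± 0.23 and 0.55 ± 0.13), and Nbl1, which was lower (-0.56 ± 0.15). These 3 genes were named after their values had been seen.

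**Figure D5:**
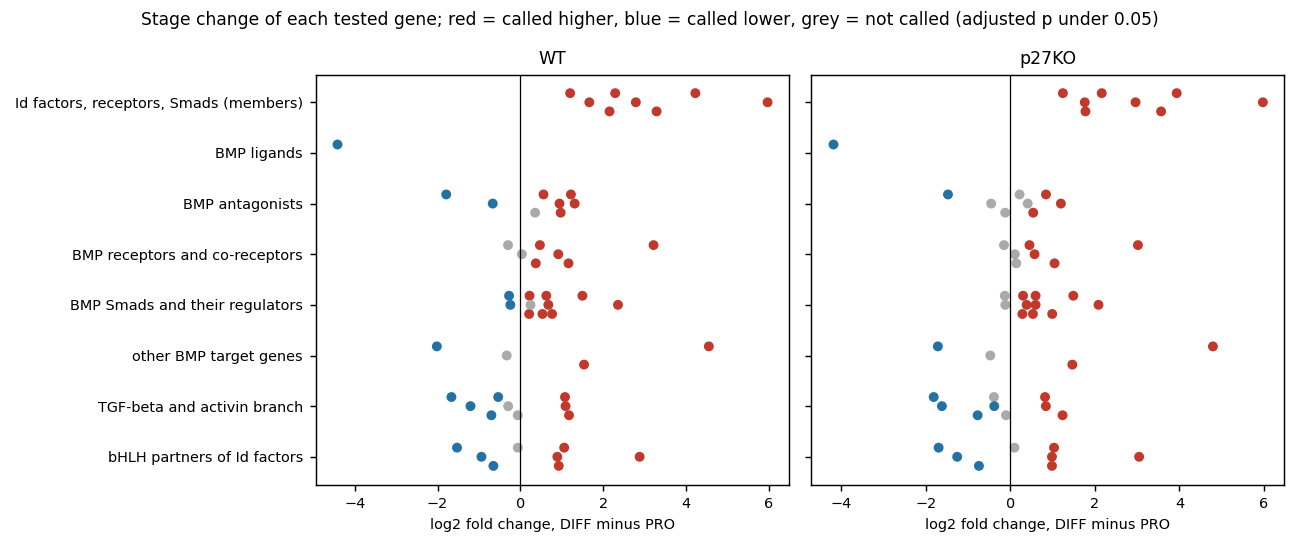
Log2 fold change (DIFF minus PRO) of each tested gene of the 10 chosen genes and of the 7 pathway lists, in WT (left) and in cultures labelled p27KO (right). Red points were called higher, blue points lower and grey points not called. All 8 points in the top row are red in both panels, and the single ligand lies at -4.42 and -4.21.

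Markers of several cell types moved with the stage, and their part in the rises was not tested. The summed level of 9 astrocyte markers was 1620 to 1720 CPM in WT PRO and 4890 to 5420 CPM in WT DIFF, and 1490 to 1770 against 4700 to 4930 CPM in libraries labelled p27KO. Of these markers 6 of 8 tested were called higher in each genotype (33.5% of all tested genes in WT and 27.5% in p27KO-labelled cultures), Gfap by log2 7.51 and Aqp4 by 6.44 in WT. S100b went the other way and was not called. It had 6.05 to 31.5 CPM in WT PRO and 8.87 to 14.5 CPM in WT DIFF. In p27KO-labelled libraries it had 19.8 and 9.89 CPM in PRO and 4.56 and 9.04 CPM in DIFF. Gjb6 stayed under 1 CPM in every library. Of the 8 NSC/NPC markers 2 were called higher (Prom1 at log2 1.49 ± 0.19 and Pax6 at 0.89 ± 0.08) and 2 lower (Nes at -3.16 ± 0.18 and Vim at -0.60 ± 0.08) in WT, with a median of 0.015, and 3 higher and 2 lower in p27KO-labelled cultures. They summed to 6690 to 7490 CPM in WT PRO and 4950 to 6200 CPM in WT DIFF. The 7 neuronal markers summed to 1630 to 1900 CPM in WT PRO and 1720 to 1970 CPM in WT DIFF, which overlapped. The 7 oligodendroglial markers summed to 150 to 247 and 169 to 286 CPM, which also overlapped. In p27KO-labelled libraries these sums were 1950 to 2270 against 2290 to 2410 CPM, and 193 to 209 against 139 to 174 CPM. In WT each list had 2 called higher and 1 lower, of 6 and 4 tested (33.5% and 33.9% of all tested genes). Endothelial cells, which express Id1, Id3 and Smad6, were looked for with 8 markers, of which 2 were tested. Kdr rose (from 1.64 to 2.26 CPM in WT PRO to 4.27 to 9.78 CPM in WT DIFF; log2 1.99 ± 0.36) and Flt1 fell (from 11.5 to 47.7 CPM to 0.953 to 3.87 CPM; log2 -3.71 ± 0.77), and both were called in the same directions in p27KO-labelled cultures. Cdh5 and Cldn5 were at 0 in every library, Pecam1 and Ly6c1 stayed under 1 CPM, and the sum was 14.8 to 51.7 CPM in WT PRO and 6.96 to 15.2 CPM in WT DIFF, which overlapped. All 7 microglial markers were under 1 CPM in every library. The 8 mural and fibroblast markers summed to 0.838 to 1.77 CPM in WT PRO, 3.85 to 5.14 CPM in WT DIFF and 5.19 to 11.1 CPM in p27KO-labelled DIFF libraries. Pdgfrb alone had 2.19 to 3.72 CPM in WT DIFF and 4.44 and 9.49 CPM in p27KO-labelled DIFF libraries. The sum of 5 ependymal markers went from 15.4 to 21.8 CPM to 88.9 to 106 CPM in WT. That sum was mostly Foxj1, with 13.7 to 19.8 CPM in WT PRO and 85.1 to 102 CPM in WT DIFF. Tmem212 and Ccdc153 stayed under 1 CPM in every library.

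The genes whose pattern over the 10 libraries was most like that of an Id gene were found by the root mean square difference of log2 CPM profiles, each centred on its own mean. They were A230057D06Rik (0.29), Gdpd2 (0.34) and Klhdc8b (0.36) for Id1, and Ccdc28a (0.19), Tmem47 (0.21) and Trim12a (0.24) for Id2. For Id3 they were Gm20634 (0.12), C230037L18Rik (0.16) and Inpp5k (0.17), and for Id4 Hspb8 (0.42), Daam2 (0.49) and Draxin (0.53). No other Id gene was among the 3 closest of any of them. The points share libraries and depth, and the measure is a description.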

How the data were processed

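RNA had been extracted with the miRNeasy micro kit, amplified with Ovation RNA-seq System V2 and made into libraries with the Ovation Ultralow System V2. The deposited values are estimated counts per gene in whole numbers, without normalization, which the authors had obtained with RSEM from STAR alignments (Ensembl annotation). Their submission also names FastQC, Trimmomatic, cutadapt and DESeq2, and GRCm38/mm10 as the build. Versions and the strand setting are not given in the sources used here, so that reads of a gene and of a gene overlapping it cannot be told apart. The table lists 48795 genes, 48349 of them with a symbol here, and 19955 had 0 counts in every library. Positions and exon lengths are those of GENCODE vM21 (GRCm38).

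Counts were fitted with edgeR 4.0.16 in R 4.3.3 (TMM scaling, robust quasi-likelihood test, two-sided). All 10 libraries entered as 4 groups that share 1 estimate of the spread, after the study's filter, which drops a gene that is under 1 CPM in 4 or more libraries. p-values were adjusted over all genes tested by Benjamini-Hochberg, with a threshold of 0.05, and log2 fold changes are given ± SE. CPM are counts divided by the library total and multiplied by 1000000. No p-value was computed over a list of genes. A further antagonist is not reported here. Alternatives were DESeq2 1.42.0, its size factors in edgeR, other filters, only the groups compared, thinning of counts to 19190068, the replicate number as a block and the omission of each library. Scripts were tested on simulated counts. The 10 genes and the lists were chosen with earlier results of these data known. Named pathway genes are up to 3 in each direction with the largest changes called in WT and a mean of at least 10 CPM, and the ligands and antagonists below the filter.

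Replicate libraries of a group differed by more than sampling noise (chi-square per gene 13.1 to 58). The labels do not say whether they came from separate animals, so that p-values measure only the spread between libraries. Deviations from the group means of WT PRO and WT DIFF libraries with the same number correlated across genes (r = 0.242, 0.276 and 0.38), all above 0.1, so the WT numbers count as pairs. For both p27KO-labelled pairs r was -0.108. With 2 libraries in a group the deviations mirror each other, so this is a single value, and it was 0.108 for the crossed pairs. It does not settle whether the p27KO-labelled numbers are pairs. The values reported come from the fit without a block, and fits with the number as a block were alternatives.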

Additional observations from a re-analysis of the deposited data

How the results depend on the processing

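All 8 tested genes stayed called higher in both genotypes under every alternative, including the omission of each library, and so did Smad6 with the wider filter. Smad6 passed that filter only through the DIFF libraries, where it was high, so its calls are not independent support. A fit without a library that leaves 1 library in a group assumes that it varies like the other groups. Among genes called between genotypes, no member gene was called in any edgeR alternative, while DESeq2 called 1 in PRO (Id1) and 1 in DIFF (Id3). The number of all genes called depended strongly on the tool and the libraries, and the cause was not tested. In the interaction it was 50, with 157 by DESeq2, 79 with no filter and 0 to 89 when each library was left out. It was 0 without WT PRO replicate 2 or 3 or any library labelled p27KO, 13 without WT PRO replicate 1, and 89 and 82 without WT DIFF replicates 1 and 2. In PRO it was 2, with 40 by DESeq2, 1 with only the groups compared, 9 and 14 with the wider and with no filter, and 1 to 4 when each library was left out (4 without WT PRO replicate 1 or p27KO-labelled PRO replicate 2, and otherwise 1). In DIFF it was 262, with 631 by DESeq2, 39 with only the groups compared and 99 to 282 when each library was left out (99 and 126 without p27KO-labelled DIFF replicates 1 and 2).

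In a fit that took the replicate number as a block, 1 gene was called in PRO. A block for the number within each genotype left 29 genes called in the interaction and 1 receptor or co-receptor called lower in WT. With the numbers of the p27KO-labelled libraries crossed, a choice made after seeing the data, 66 genes were called in the interaction, and 1 receptor or co-receptor was called lower in WT. The block changed no other call of the 10 genes.

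Pathway lists changed as follows. With no filter 3 BMP ligands were called higher in WT and 1 in p27KO-labelled cultures. The ligands other than Bmp7 were below the study's filter and had few counts, so these calls are not independent support for a rise. The share of all genes called with no filter is not given here. Receptors called lower in WT were 1 with the wider filter, 2 with no filter and 0 to 1 when each library was left out (1 without WT DIFF replicate 2 or WT PRO replicate 1), and 1 in p27KO-labelled cultures with no filter. Antagonists called lower in WT ranged from 1 (without any WT library but DIFF replicate 3) to 2, and Smads and regulators from 0 (without WT DIFF replicate 1 or WT PRO replicate 2) to 2, with 1 without WT DIFF replicate 3. Smads and regulators called higher in p27KO-labelled cultures were 5 with no filter and 4 to 9 when each library was left out (4 and 5 without p27KO-labelled DIFF replicates 1 and 2), and TGF-beta branch genes called lower there were 2 to 4 (2 without p27KO-labelled DIFF replicate 2).

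Differences that were not called changed sign in some fits, and the cause was not tested. When each library was left out the interaction ranged from -0.069 to 0.38 for Id2, -0.44 to 0.76 for Id4, -0.011 to 0.22 for Bmpr1a, -0.086 to 0.17 for Bmpr1b, -0.31 to 0.40 for Smad7 and -1.23 to 0.40 for Smad9, and the thinned counts gave -0.096 for Smad7. The difference in PRO ranged from -0.16 to 0.061 for Id3, -0.59 to 0.61 for Id4, -0.062 to 0.082 for Bmpr1a, -0.061 to 0.64 for Smad7, -0.14 to 1.49 for Smad9 and -0.18 to 0.10 for Cdkn1b. The difference in DIFF ranged from -0.020 to 0.22 for Bmpr1a and -0.14 to 0.059 for Smad6. Without p27KO-labelled PRO replicate 1 the PRO differences of Id4 and Smad9 were -0.59 and -0.14, and without replicate 2 that of Smad7 was -0.061. Depth limits Bmp4 and the PRO levels of Smad6.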
